A study of Homo sapiens with 4 samples.

Results

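Of 162761 regions of open chromatin on chromosomes 1 to 22, 3636 (2.23%, 95% exact interval 2.16 to 2.31) were called in SKBR3, T47D and HCT116 cells and lacked a call in RKO cells. The regions were obtained by merging the peaks of all 4 lines wherever they overlapped by 1 bp or more. The 3636 regions were therefore selected on the measured peak calls themselves, and the pattern of 3 calls and 1 absence is their definition and not a finding. They covered 1.40 Mb in all. Absence of a call means that no RKO peak passed the authors' q cutoff of 0.1 there. It does not show that the chromatin was closed.

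The series used ATAC-seq, in which a transposase cuts accessible DNA and leaves sequencing adapters behind, on 4 established human cancer cell lines of genotype WT, in a study of how FOS family proteins control PVRL4. SKBR3 and T47D carry the label breast cancer, and HCT116 and RKO the label colorectal cancer. McCoy's 5A was the medium for SKBR3 and HCT116, RPMI was used for T47D and DMEM for RKO, and the protocol names 10% fetal bovine serum. RKO thus had a medium of its own, and the effects of medium and line cannot be told apart. There was 1 library per line, so no test between lines was possible, and every interval given below covers counting error only.

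As background, open regions are promoters, enhancers and insulators from which nucleosomes have been cleared. Promoters of housekeeping genes tend to be open in every cell type, and enhancers tend to be open in few. Epithelial cells keep open a set of enhancers that serve cell adhesion and cell junctions, and these can close when a carcinoma cell loses its epithelial form. SKBR3 and T47D are luminal breast cancer lines, HCT116 is a colorectal carcinoma line of epithelial form, and RKO is a poorly differentiated colorectal carcinoma line. The positions below are hg19 and were not matched to genes, since no annotation of that build was used here. Whether the regions are epithelial elements, and whether the markers of breast or colon are open in these lines, was therefore not tested. For the same reason no base sequence is printed.

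The RKO library was not the shallowest. It kept 3262240 tags after removal of duplicate positions, against 1057628 in HCT116, 4313512 in SKBR3 and 5450100 in T47D. It had 64571 peaks on chromosomes 1 to 22, HCT116 had 38941, T47D 75390 and SKBR3 108561. Duplicates made up 63% of the tags in both colorectal lines, 47% in SKBR3 and 49% in T47D.

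The share of widely open regions that a single line lacked was set beside that of the other lines. Of the 22941 regions called in SKBR3, T47D and HCT116, 15.8% (15.4 to 16.3) had no RKO call. The same share was 24.5% for HCT116, with 6270 of 25575 regions. It was 9.57% (9.18 to 9.98) for T47D, with 2044 of 21349, and 7.03% (6.69 to 7.39) for SKBR3, with 1460 of 20765. In full lists RKO thus stood between the shallow HCT116 library and the breast lines. With every list shortened to its 38941 peaks of highest −log10 q, the length of the HCT116 list, 15.2% of such regions lacked a call in RKO, 9.08% in HCT116, 8.54% in T47D and 20.4% in SKBR3. The RKO share moved little with list length. The HCT116 share fell below that of RKO, and the SKBR3 share went from the lowest to the highest.

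The share lacking a call in RKO fell steadily with the strength of the region in the other lines. Strength was read as the percentile rank of pileup, the number of tags stacked at the summit, within each list. Pileup is not scaled between libraries, so only these ranks are set side by side. The lowest of the 3 ranks was used, since it marks the line in which the region was weakest. Where that rank was at most 10, 38.8% (35.5 to 42.2) of 855 regions had no RKO call. Between rank 40 and 50 the share was 17.8% (16.3 to 19.3) of 2514 regions. Over rank 90 it was 1.60% (1.14 to 2.18), or 39 of 2436 regions.

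**Figure D1:**
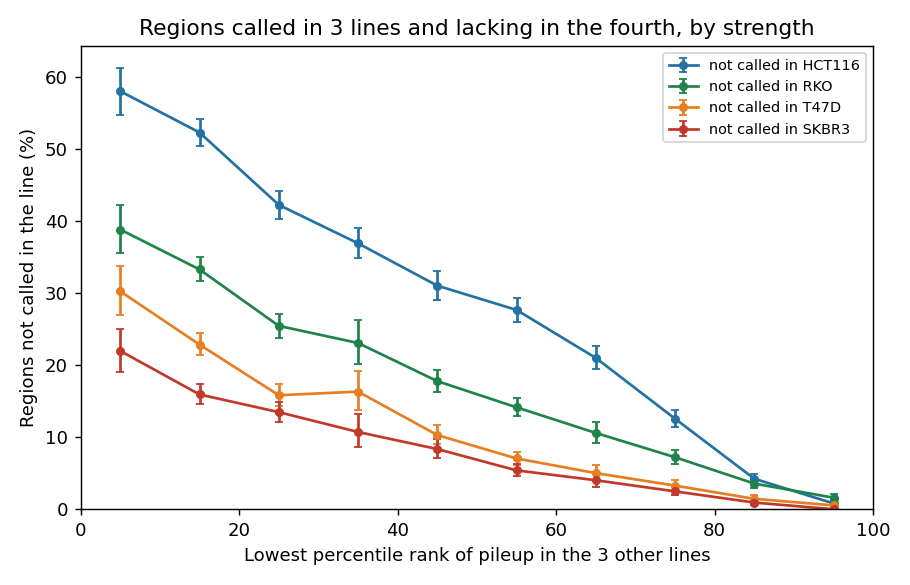
Share of regions called in 3 lines that the fourth line lacked (%, vertical axis), by the lowest percentile rank of pileup in the 3 other lines (horizontal axis, bins of 10). Points are shares and bars are exact 95% intervals; the RKO share fell from 38.8% in the lowest bin to 1.60% in the highest, where it lay above the 0.809% of HCT116.

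At the strong end the order of RKO and HCT116 turned. Among regions over rank 90 in the 3 other lists, HCT116 lacked 27 of 3339 (0.809%, 0.534 to 1.17), T47D 13 of 2432 (0.535%, 0.285 to 0.912) and SKBR3 0 of 2546, which allows a share of up to 0.145%. RKO lacked the largest share of the 4 lines there. The cut is not the same for each line. The RKO, T47D and SKBR3 sets ask for a high rank in the short HCT116 list, and the HCT116 set does not. The part of depth in these shares was not tested. The lower end of the RKO interval, 1.14, lay just below the upper end of that of HCT116, 1.17, so the intervals overlapped. Regions are not independent samples of a line, so no test of this difference is given.

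Among strong regions, those without an RKO call outnumbered those whose RKO call lay at rank 75 or below. Of the 2436 regions over rank 90 in SKBR3, T47D and HCT116, 2366 (97.1%) were also over rank 75 in RKO, 24 lay at rank 50 to 75, 6 at rank 25 to 50 and 1 at rank 25 or below. Between the 39 regions without a call and the bulk of strong RKO calls lay few weak ones. In HCT116 the matching set of 3339 had 120 regions at rank 50 to 75, 10 at rank 25 to 50, 0 below and 27 not called. In T47D the matching set of 2432 had 12, 2, 0 and 13, so few weak calls beside the absent ones were not particular to RKO. Among weaker regions, low RKO ranks were common. Where the lowest rank was at most 50, 2661 regions had no RKO call, 806 were at rank 25 or below, 1995 at rank 25 to 50 and 2809 at rank 50 to 75.

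**Figure D2:**
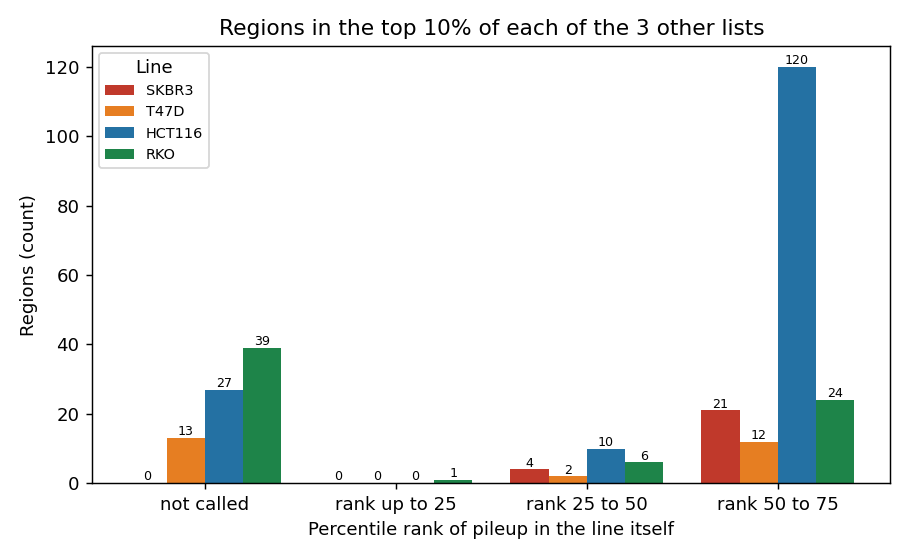
Number of regions (vertical axis, from 0) that were over rank 90 in the 3 other lists, by the rank of their pileup in the line named by colour (horizontal axis); regions over rank 75 in that line are left out of the plot. RKO had 39 regions with no call and 1 at rank 25 or below, and HCT116 had 27 with no call and 0 at rank 25 or below.

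The regions were weaker than the 19305 regions called in all 4 lines. In SKBR3 their pileup had a median of 11 tags (interquartile range 6 to 21), against 17 (10 to 29) for regions called in all 4 lines, and their median rank was 66.7 against 80.0. In T47D the pileup had a median of 15 (8 to 28) against 29 (16 to 47), with median ranks of 60.5 and 81.0. In HCT116 it had a median of 5 (3 to 7) against 8 (5 to 14), with median ranks of 40.8 and 65.3. All 3 lines showed the same direction, and HCT116 was the line in which the regions ranked lowest. Within the full lists, the median rank was above 50 in SKBR3 and T47D and below 50 in HCT116. HCT116 gave the lowest of the 3 ranks in 63.5% (61.9 to 65.0) of the regions, but it did so in 61.5% (60.8 to 62.2) of the regions called in all 4 lines too. SKBR3 gave the highest rank in 52.8% (51.2 to 54.4), against 41.9% (41.2 to 42.6) in regions called in all 4 lines. The order of the lines in these ranks depends on the length of their lists. With lists of equal length the median ranks were 53.2 in SKBR3, 56.0 in T47D and 50.8 in HCT116, and SKBR3 gave the highest rank in 33.6% (31.7 to 35.5) of the 2335 regions that remained by the same definition. T47D then gave it in 36.3% (34.3 to 38.3) and HCT116 in 30.1% (28.3 to 32.1). In the 13024 regions called in all 4 lines with equal lists, SKBR3 gave it in 17.1% (16.4 to 17.7). There T47D gave it in 37.7% (36.9 to 38.6) and HCT116 in 45.2% (44.3 to 46.0).

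**Figure D3:**
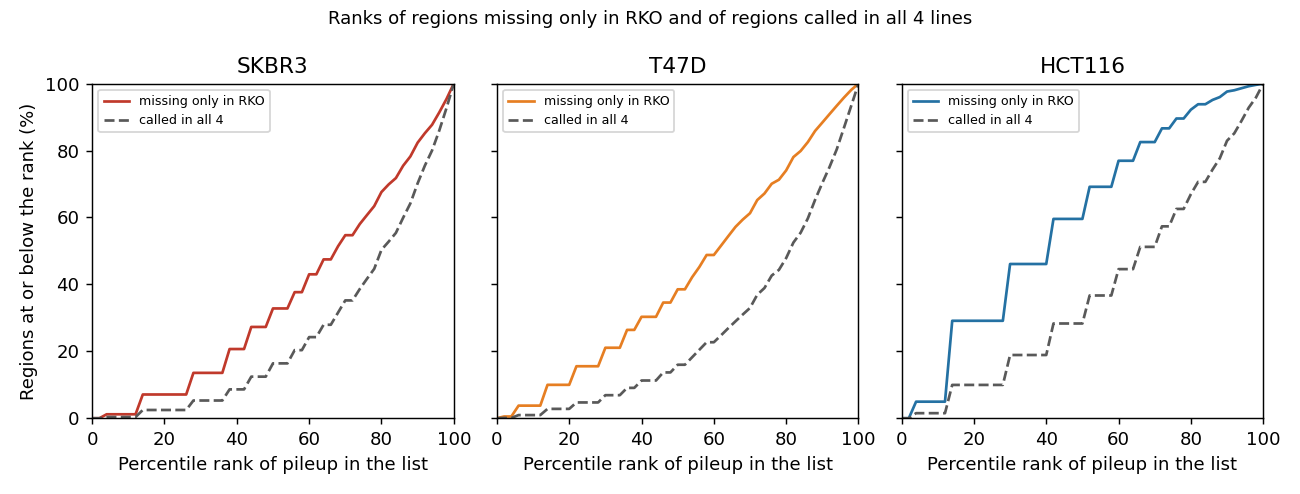
Cumulative share of regions (%, vertical axis) by the percentile rank of their pileup within the list (horizontal axis), for the 3636 regions missing only in RKO (solid) and the 19305 regions called in all 4 lines (dashed), with 1 panel per line. The solid curve runs above the dashed one in all 3 panels, with median ranks of 66.7 and 80.0 in SKBR3, 60.5 and 81.0 in T47D, and 40.8 and 65.3 in HCT116.

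In the full lists, regions lacking in another single line ranked lower still in the breast lists. The 2044 missing only in T47D had a median rank of 49.8 in SKBR3, and the 1460 missing only in SKBR3 had 48.5 in T47D. Both sets had the same median rank as the RKO set in HCT116, 40.8, where pileup takes few values. The 6270 regions missing only in HCT116 had median ranks of 55.0 in SKBR3 and 52.0 in T47D. That set needs no call in the short HCT116 list, and these ranks were not taken with lists of equal length.

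Few of the regions were strong in every line. A pileup in the top 10% of the list was found for 17.7% (16.4 to 18.9) in SKBR3, 11.6% (10.6 to 12.7) in T47D and 2.37% (1.90 to 2.91) in HCT116. It was found in all 3 lists at once for 39 regions, 1.07% (0.764 to 1.46), against 12.4% (12.0 to 12.9) of the regions called in all 4 lines. A −log10 q of at least 10 was reached by 49.4% in SKBR3, 64.3% in T47D and 13.0% in HCT116, and in all 3 by 303 regions (8.33%, 7.45 to 9.28). In regions called in all 4 lines the shares were 69.0%, 86.5% and 41.1%, and 36.4% in all 3. Of all peaks in a list, 30.3% reached it in SKBR3, 48.3% in T47D and 25.2% in HCT116. Reaching that threshold depends on depth, so the order of the lines in it is not an order of openness.

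Among themselves the regions differed in which lines carried them. A rank over 50 in all 3 lists was found for 975 (26.8%), and in both breast lists but not in HCT116 for 838. Another 625 (17.2%) lay at rank 50 or below in all 3 lists. SKBR3 alone was over rank 50 in 417, T47D alone in 286 and HCT116 alone in 146. Of the 19305 regions called in all 4 lines, 62.5% (61.9 to 63.2) were over rank 50 in all 3 lists, 13.3% (12.8 to 13.8) in both breast lists but not in HCT116, and 6.13% (5.79 to 6.48) in none. With lists of equal length 332 of 2335 regions (14.2%) were over rank 50 in the breast pair only. In HCT116 only it was 290 (12.4%), so the size of the lead of the breast pair depended on list length. In the 13024 regions called in all 4 lines with equal lists, the shares were 3.25% in the breast pair only and 8.61% in HCT116 only. Ranks went together less closely than in regions called in all 4 lines. Spearman's rho over the 3636 regions was 0.57 between SKBR3 and T47D, 0.33 between SKBR3 and HCT116 and 0.36 between T47D and HCT116, against 0.76, 0.67 and 0.71 over the 19305 regions. These correlations are descriptions across regions that share the same 3 libraries, and low pileups in HCT116 leave many regions tied.

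Nearly all the regions were single peaks. Their merged width had a median of 339 bp (242 to 478), against 469 bp (317 to 678) for regions called in all 4 lines, which join the peaks of 1 more line. A single peak lay in the region in SKBR3 for 97.6%, in T47D for 98.0% and in HCT116 for 97.7%. In regions called in all 4 lines the shares were 93.6%, 95.9% and 92.2%. The summits of the 3 lines were a median of 55 bp apart from first to last (32 to 91), and within 50 bp of each other in 45.9% (44.2 to 47.5), against 51.8% (51.1 to 52.5) of the regions called in all 4 lines. In 257 regions (7.07%, 6.26 to 7.95) they were over 200 bp apart, against 8.31% (7.93 to 8.71), with intervals that overlapped.

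The 20 regions with the highest lowest rank lay on 11 chromosomes, with 3 each on chromosomes 1, 7 and 19. Their pileup ran from 35 to 68 tags in SKBR3 (median 48.5), from 54 to 92 in T47D (median 65.5) and from 20 to 35 in HCT116 (median 24.5). With lists of equal length, all 20 kept their calls in SKBR3, T47D and HCT116. They were picked for high ranks, and the HCT116 list keeps its length, so this is no test of the 20. The lowest rank among them was 94.4. In the 1337 regions called in all 4 lines that ranked at least as high in SKBR3, T47D and HCT116, the RKO pileup had a median of 45 tags and a 5th percentile of 32. It ran from 4 to 188, and 3 of the 1337 lay below rank 50 in RKO. The weakest peaks of the RKO list had a pileup of 2.

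**Figure D4:**
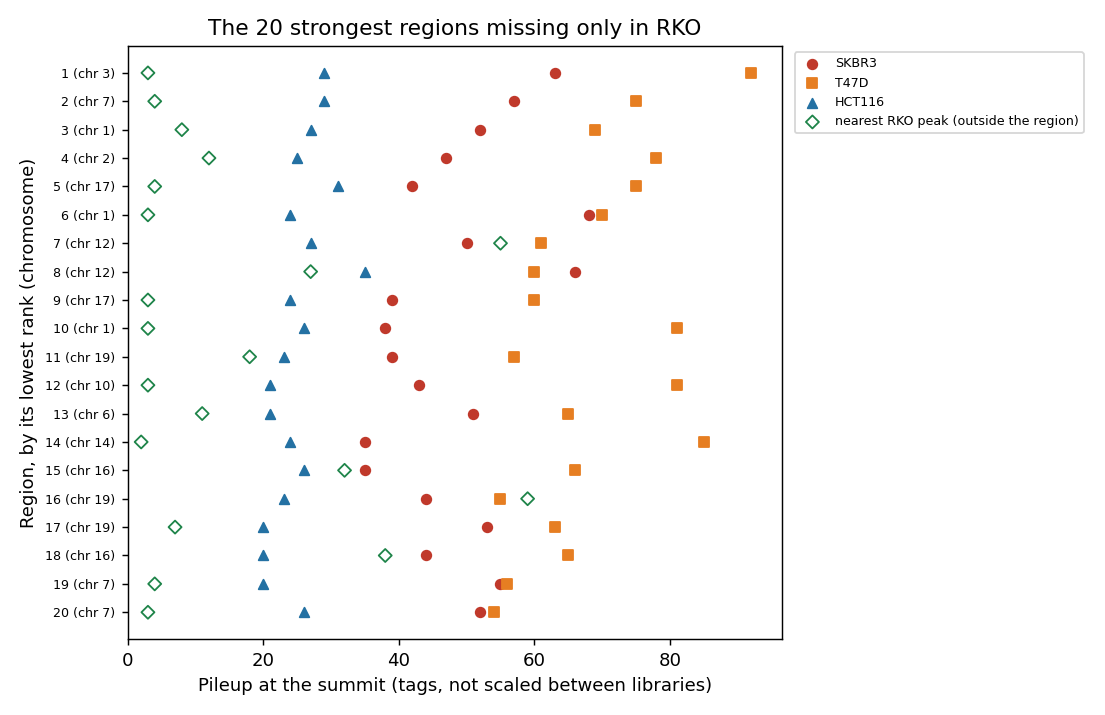
Pileup at the summit (tags, horizontal axis, not scaled between libraries) in SKBR3, T47D and HCT116 for the 20 regions missing only in RKO with the highest lowest rank (vertical axis, numbered from 1, with the chromosome). Open diamonds give the pileup of the nearest RKO peak, which lies outside the region by 0.7 to 145 kb; it was 4 tags or fewer for 10 of the 20.

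The strongest of all was chr3:37034289-37035325. It held 63 tags in SKBR3, 92 in T47D and 29 in HCT116, and its ranks were 99.6, 99.8 and 98.9. The authors' fold enrichments over local background were 14.1 in SKBR3 and 15.3 in T47D, and the summits of the 3 lines lay at 37034723, 37034764 and 37034742. By pileup rank it stood near the top of each of the 3 lists. The upper quartile of fold in regions called in all 4 lines was 13.2 in SKBR3, 16.5 in T47D and 10.3 in HCT116. The fold of this region lay below that quartile in T47D and above it in SKBR3 and HCT116. The nearest RKO peak was 22.6 kb away and held 3 tags.

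The region chr7:23053433-23054038 came next, with 57, 75 and 29 tags in SKBR3, T47D and HCT116 and a lowest rank of 98.7. Its folds were 22.4, 23.5 and 18.5, higher than at the first region in all 3 lines. The nearest RKO peak was 41.3 kb away with 4 tags. At chr1:21934122-21934780 the pileups were 52, 69 and 27 and the folds 21.0, 23.8 and 16.9. There the nearest RKO peak lay 11.9 kb away with 8 tags. The 3 summits of that region lay within 5 bp of each other.

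Of the 20, chr2:208030783-208031293 lay farthest from an RKO peak, at 145 kb. It held 47 tags in SKBR3, 78 in T47D and 25 in HCT116. At chr1:243419041-243419666 the nearest RKO peak was 90.5 kb away, with pileups of 38, 81 and 26. At chr1:111506379-111506925 it was 66.3 kb away, with 68, 70 and 24. At chr17:8533967-8534911 it was 57.6 kb away, with 42, 75 and 31. In these 4 the RKO list was empty well beyond the region itself.

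Other members of the 20 lay close to a strong RKO peak. At chr12:52542250-52542758, with 50, 61 and 27 tags, an RKO peak of 55 tags lay 0.7 kb away. At chr12:7055402-7055869, with 66, 60 and 35 tags, an RKO peak of 27 tags lay 1.33 kb away. At chr19:50832436-50832984, with 39, 57 and 23 tags, an RKO peak of 18 tags lay 1.02 kb away. The absence of a call was thus local in these places. At chr16:85648705-85648915, with an RKO peak of 32 tags at 1.74 kb, the pileups of 35, 66 and 26 went with low fold enrichments over local background, 4.97 in SKBR3, 3.09 in T47D and 9.16 in HCT116.

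The remaining 9 of the 20 had lowest ranks of 94.4 to 96.1. The region chr14:51561616-51562115 held 35 tags in SKBR3, 85 in T47D and 24 in HCT116, and chr10:46167683-46168483 held 43, 81 and 21. At chr16:23193632-23194433 the pileups were 44, 65 and 20 and the fold in T47D was 25.1, the highest of the 20 in that list. At chr7:101499872-101500556 they were 52, 54 and 26, with the 3 summits within 7 bp. Chr17:3657792-3658584 held 39, 60 and 24, and chr7:47514722-47515253 held 55, 56 and 20. At chr6:52368330-52369519, the pileups were 51, 65 and 21, and the SKBR3 summit stood apart from the other two. On chromosome 19 chr19:49127358-49127751 held 44, 55 and 23, with an RKO peak of 59 tags 4.45 kb away. Chr19:7708483-7709295 held 53, 63 and 20, and its summits lay up to 464 bp apart, the widest spread of the 20.

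The nearest RKO peak lay a median of 9.24 kb away (3.74 to 22.6), and the distances ran from 4 to 496179 bp. With the RKO list shortened to 38941 peaks the median was 16371.5 bp. For the regions missing only in T47D, SKBR3 or HCT116, the median distance to the nearest peak of the missing line was 11160, 3741.5 and 11199 bp, from full lists of different length. An RKO peak lay within 1 kb of 7.92% (7.06 to 8.85), within 10 kb of 52.3% (50.6 to 53.9) and within 100 kb of 97.3% (96.7 to 97.8). Of the 39 regions in the top 10% of all 3 lists, 36 had none within 1 kb and 21 had none within 10 kb. The kind of the nearest RKO peak was set beside the regions called in RKO as a whole. It was a peak shared by all 4 lines for 31.2% (29.7 to 32.8), where such regions made up 31.0% of the regions called in RKO. It was a peak of RKO alone for 35.2% (33.7 to 36.8), against 38.3% of that list, and one shared with 1 or 2 other lines for 33.5% (32.0 to 35.1), against 30.7%.

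The edge of the definition was soft. The member nearest to an RKO peak, chr10:79667725-79667948, held 11 tags in SKBR3, 15 in T47D and 8 in HCT116, and an RKO peak of 2 tags began 4 bp away. At chr15:69591081-69591347, with 12, 10 and 3 tags, an RKO peak of 5 tags lay 7 bp away, and at chr16:27324709-27325057, with 9, 13 and 3 tags, one of 10 tags lay 12 bp away. Just outside the definition were regions called in all 4 lines with the weakest RKO calls. These were chr1:155698880-155699187, chr2:113896096-113896395 and chr4:150919013-150919564, each with 2 RKO tags at a −log10 q of 1.02. They held 8, 4 and 6 tags in SKBR3, 11, 8 and 4 in T47D, and 2, 3 and 3 in HCT116.

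The surroundings of the regions were poorer in RKO peaks than those of regions called in all 4 lines. Within 50 kb of the centre, leaving out the region itself, there was a mean of 4.18 RKO peaks, against 4.99 around regions called in all 4 lines, a ratio of 0.838. The ratio was 0.919 for HCT116 peaks, 0.985 for T47D and 1.03 for SKBR3. No RKO peak at all lay within 50 kb of 9.76% of the regions, against 5.36% of those called in all 4 lines. A lower own density was not seen for RKO alone. Around regions missing only in T47D the ratio was 0.751 for T47D peaks, but it was also 0.790 for RKO peaks. Around regions missing only in SKBR3 it was 0.965 for SKBR3 peaks, and around those missing only in HCT116 0.936 for HCT116 peaks.

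**Figure D5:**
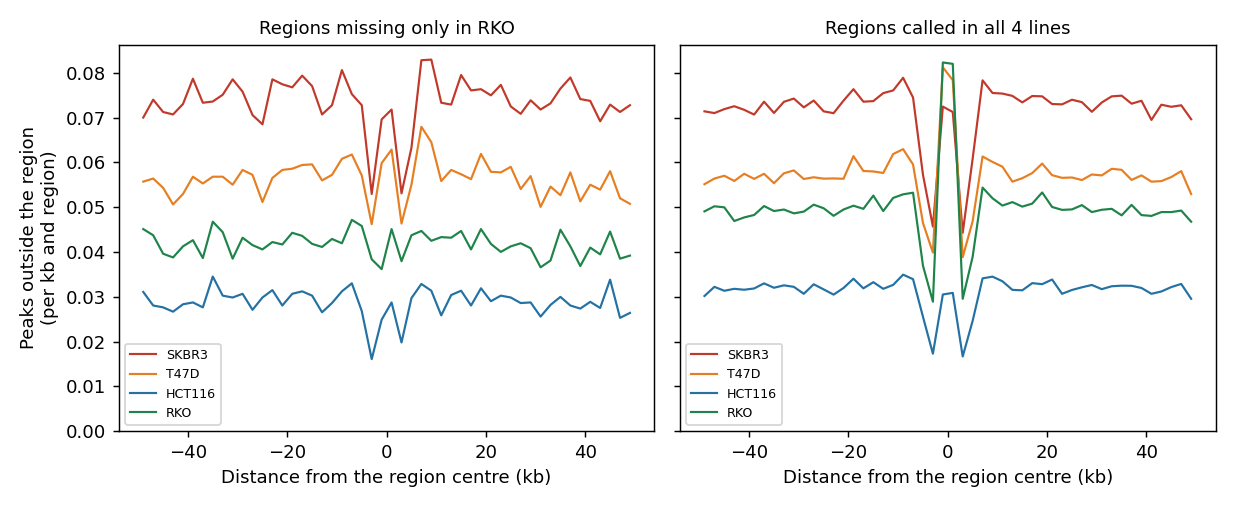
Peaks outside the region per kb and region (vertical axis, from 0) by distance from the region centre (kb, horizontal axis, bins of 2 kb) in each line, for regions missing only in RKO and regions called in all 4 lines. RKO peaks around the first kind averaged 4.18 within 50 kb and around the second 4.99, while SKBR3 peaks averaged 7.34 and 7.16.

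Regions missing only in RKO were neighbours more often than their overall share. Along each chromosome, the next of the 22941 regions called in SKBR3, T47D and HCT116 also lacked an RKO call in 20.7% of 3634 cases after a region without an RKO call. It did so in 14.9% (14.4 to 15.5) of 19285 cases after a region called in all 4 lines. The difference was widest when the next region lay within 2 kb, at 30.3% (22.6 to 38.9) of 132 against 8.23% (6.52 to 10.2) of 899. Such close pairs can be parts of 1 element. It was still there beyond 50 kb, at 21.1% (19.2 to 23.1) of 1771 against 16.5% (15.7 to 17.3) of 8239. The direction was the same in all 4 classes of strength of the next region, from 39.0% against 32.8% at a lowest rank of 25 or below to 4.38% (3.13 to 5.94) against 3.49% (3.05 to 3.99) over rank 75, where the intervals overlapped. With lists of equal length the shares were 20.4% (18.8 to 22.1) and 14.3% (13.7 to 14.9). RKO was not alone in this: the shares were 13.8% and 9.14% for regions missing in T47D, 9.80% and 6.81% in SKBR3 and 26.4% and 23.9% in HCT116.

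Most of the regions stood singly. The counts of this paragraph have no comparison set beside them and describe spacing only. Another member lay within 50 kb of 27.3% (25.8 to 28.7), and the median distance from one member to the next was 296 kb, with an upper quartile of 782 kb. In the row of regions called in SKBR3, T47D and HCT116, 2304 members (63.4%) stood alone between regions with an RKO call or a chromosome end. The other 1332 (36.6%) fell into 580 runs of 2 or more, of which 10 held 5 or more. Of the stretches between neighbouring RKO peaks, 267 crossed 2 members, 22 crossed 3 and 3 crossed 4. No long RKO-free stretch crossed many members.

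The longest run held 8 members, at chr8:102486424-103145603, a span of 659 kb. By the definition of a run, no region there was called in all 4 lines. SKBR3 had 46 peaks in it, T47D 31, HCT116 12 and RKO 9, so RKO was not without peaks there. The member chr8:102504301-102505045 was strong in the breast lines, with 27 tags in SKBR3 and 63 in T47D, and weak in HCT116 with 4. Its neighbour chr8:102505959-102506482 held 22, 49 and 4 tags. Of the 8, chr8:102803109-102803414 had the highest lowest rank, 58.8, with 13, 22 and 7 tags, and its nearest RKO peak was 158 kb away. In HCT116 none of the 8 held more than 8 tags, so this run rested on modest or weak calls in that line.

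A run of 6 members at chr11:134230158-134527012 contained stronger HCT116 calls in its first and last members. Those between held 3 to 7 tags in HCT116. Its first member, chr11:134230158-134230501, held 27 tags in SKBR3, 62 in T47D and 15 in HCT116. Its last, chr11:134526362-134527012, held 9, 104 and 19, with ranks of 59.5 in SKBR3 and 93.5 in HCT116. RKO had 4 peaks in this span of 297 kb, against 22 in SKBR3, 24 in T47D and 8 in HCT116. T47D gave the highest of the 3 ranks in all 6 members of this run.

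The other runs of 6 held no member with a lowest rank over 50.8. The chromosome 11 run reached 88.2, but its median lowest rank was 32.4. The other runs of 6 lay at chr16:81538692-81731150, chr6:150716685-151134818 and chr1:152423862-153095852, with median lowest ranks of 31.7, 20.9 and 13.3. RKO had 10, 3 and 10 peaks in them. The strongest single member there by its breast calls was chr1:153095388-153095852, with 49 tags in SKBR3 and 80 in T47D but 4 in HCT116.

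The windows of 100 kb with most members held 5, and 8 windows held 4, of which the 3 with the highest share of members are described. On chromosome 19, 6700001 to 6800000, 5 of 8 regions called in SKBR3, T47D and HCT116 lacked an RKO call. The strongest was chr19:6766026-6766317, with 27, 31 and 12 tags. On chromosome 11, 67700001 to 67800000, 5 of 9 did, and all 5 were breast-led, with 18 to 41 tags in SKBR3, 24 to 61 in T47D and 4 to 7 in HCT116. RKO had 6 and 11 peaks in these windows, so neither was empty in RKO.

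Among the windows named here, 1 held members only. On chromosome 16, 85500001 to 85600000, 4 of 4 lacked an RKO call, and RKO had 3 peaks there against 15 in SKBR3, 20 in T47D and 5 in HCT116. These 4 lay in 1 of the stretches between RKO peaks that crossed 4 members, 132 kb long, from 85454624 to 85586938. The highest lowest rank among them was at chr16:85548141-85549114, with 25, 30 and 10 tags. The member chr16:85505367-85506407 held 49 tags in SKBR3 and 93 in T47D but 3 in HCT116. On chromosome 12, 113500001 to 113600000, 4 of 5 lacked an RKO call, led by chr12:113590622-113591347 with 34, 59 and 13 tags. On chromosome 22, 25300001 to 25400000, it was also 4 of 5, with 5 to 6 tags in HCT116. The windows and runs were picked for their counts, so they describe places and do not test for clustering.

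The regions were spread over all 22 chromosomes. Chromosome 19 had the lowest share of 3-line regions without an RKO call, 12.4% (10.8 to 14.1), and chromosome 8 the highest, 18.6% (16.1 to 21.3). Chromosomes 9, at 12.6% (10.5 to 14.9), 22, at 13.2% (10.6 to 16.1), and 16, at 13.5% (11.5 to 15.7), were also low. Chromosomes 20, at 18.4% (15.7 to 21.3), 10, at 18.3% (15.9 to 20.7), and 15, at 18.1% (15.7 to 20.8), were also high. Chromosome 8 also had the highest share for each other line, at 29.3% for HCT116, 16.7% for T47D and 14.5% for SKBR3, so its place was not particular to RKO. Chromosome 19 had the lowest share for T47D too, at 4.98%.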

How the data were processed

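ATAC-seq peak lists of 4 cell lines, 1 library each of single-end reads of 60 bp, were used. The submitters' processing notes name hg19, Bowtie2 2.4.1 and MACS3 3.0.0b3. Each library had its own peak call, per the file headers, with no control, a q cutoff of 0.1 and 1 tag per position; no shift to the transposase cut site is named. The T47D header calls its input T45D; the list was taken by the sample it belongs to. The deposited pileup is a signal in stacked tags, the deposited fold enrichment is the authors' ratio to local background, and the deposited −log10 p-values and −log10 q-values are those of the authors' MACS3 run; all are values within 1 library.

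Peaks on chromosomes 1 to 22 were merged at an overlap of 1 bp with pandas 2.3.3. A region took the highest peak of each line. Ranks are percentiles within each list, ties averaged. Intervals are exact Clopper-Pearson (scipy 1.17.1). Merging was tested on simulated lists. Regions named are the 20 with the highest lowest rank, the 5 longest runs, the 5 windows of 100 kb with most members (ties by the share of 3-line regions that are members) and 3 on each side of the definition's edge; a few others within those runs and windows were chosen after their values were seen. The regions and measures were chosen with earlier results of these data known. Gene starts and motifs, planned for the case of an hg19 reference, were not used here.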

Additional observations from a re-analysis of the deposited data

Results flagged for a closer look

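Chromosome X lay outside the definition. On it 81 of 537 regions called in SKBR3, T47D and HCT116 had no RKO call, 15.1% (12.2 to 18.4), beside 15.8% on chromosomes 1 to 22. It is given because these data lie outside the comparisons above.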

How the results depend on the processing

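The number of regions, 3636, stayed within 1.5 times of itself with a −log10 q of at least 2, with no RKO peak within 1 kb, with merging over 200 bp and with aligned summits (3348 to 3604). It was 2335 with every list shortened to the shortest, 1671 with RKO then kept in full, 303 with a −log10 q of at least 10 in the 3 lines and 1736 with no RKO peak within 10 kb. Without 1 of the 3 called libraries it ran from 4718 (SKBR3 left out) to 23944 (HCT116 left out), so requiring a call in the shallow HCT116 list lowered the count most; each of these asks for calls in only 2 lines. These last and the value with RKO in full were added after the data were seen. With lists of equal length the shares lacking in 1 line were 15.2% for RKO, 9.08% for HCT116, 8.54% for T47D and 20.4% for SKBR3; the cause was not tested. The HCT116 share was 23.6% with merging over 200 bp, and the T47D share 9.05% with −log10 q held to 2 or more. Median ranks by fold were 69.8 (SKBR3), 64.3 (T47D) and 39.9 (HCT116), by −log10 q 63.7 (T47D) and 40.9 (HCT116), and with equal lists 53.2, 56.0 and 50.8. The share with a member nearby was 7.56% within 10 kb, 41.3% within 100 kb and 22.9% with equal lists. The median distance to an RKO peak was 16371.5 bp with the RKO list shortened, a value also added after the data were seen. No paired analysis was possible because each line has 1 library. Gene start and motif alternatives were not run. The part of HCT116 depth in the count was not tested.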
